A study of Mus musculus with 12 samples.

Results

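Tripartite motif (TRIM) genes were followed in CD8 T cells that met a foreign antigen in mice. The members were every gene of the deposited table whose symbol is Trim, a number and at most 1 further letter, which gave 60 genes of the 16353 listed. Of these, 44 had enough reads to be tested and 16 did not. The cells were KB5 CD8 T cells, whose transgenic T cell receptor recognises an H2b antigen of C57BL/6 mice, in CBA/J hosts. Inflamed cells came from mice given 10 M (mega) C57BL/6 splenocytes as the antigen source, anti-CD154 (0.5 mg), which blocks the costimulatory CD40 ligand, and LPS (100 µg), the inflammatory lipopolysaccharide of bacteria. Tolerized cells came from mice given the splenocytes and anti-CD154, activated cells from mice given the splenocytes alone, and naive cells from untreated mice. Spleens were taken 12 h after treatment and cells sorted on CD8 and the KB5 receptor to 95% purity, per the labels. Each of the 4 groups had 3 libraries, which the labels call independent; whether each came from its own mouse is not stated, and p-values then cover the spread between libraries alone, which may be technical. The ages and sexes of the mice are not given in the sources used here.

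TRIM proteins share a RING domain, which in most of them acts as a ubiquitin ligase, followed by B-box and coiled-coil domains and a variable end that chooses the target. A few, such as Trim14 and Trim44, lack the RING. Several are known from antiviral defence: Trim25 activates the RNA sensor RIG-I, Trim21 binds antibody-coated virus in the cytosol, and the rodent Trim12, Trim30 and Trim34 genes are relatives of human TRIM5 and TRIM34, of which TRIM5 restricts retroviruses. Many of these genes are induced by interferons. Another branch, the TIF1 group of Trim24, Trim28, Trim33 and Trim66, works on chromatin, and Trim28 silences endogenous retroviruses as the partner of KRAB zinc finger proteins.

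The libraries held 29.3 M to 84.5 M reads, of which 54498 to 185287 lay on TRIM genes. All 7 T cell markers were read, with a summed level of 3652 to 3889 CPM (counts per M reads) in inflamed, 2865 to 3383 CPM in tolerized, 2586 to 3558 CPM in activated and 4356 to 5381 CPM in naive libraries. Markers of other spleen cells were present too. The 9 macrophage markers found summed to 10.3 to 375 CPM in inflamed, 37.2 to 115 CPM in tolerized, 50.1 to 624 CPM in activated and 652 to 1697 CPM in naive libraries. The 7 B cell markers found summed to 80.03 to 113, 78.5 to 167 and 98.3 to 123 CPM in the inflamed, tolerized and activated libraries in that order, and to 343 to 435 CPM in the naive ones. The first activated and tolerized libraries held the least of the resting T cell transcript Il7r and the third ones the most: 4.48, 5.07 and 21.8 CPM in tolerized and 5.76, 34.6 and 87.9 CPM in activated libraries 1, 2 and 3, against 246 to 287 CPM in naive ones. Dntt, also higher in naive cells, followed this order in activated libraries (1.15, 6.39 and 14.4 CPM) but not in tolerized ones (0.76, 1.27 and 0.873 CPM). Tolerized 3 also stood apart in the proliferation gene Mki67, with 301 CPM against 2.96 and 48.5 CPM in tolerized 1 and 2. Inflamed libraries 1, 2 and 3 had 5.81, 44.4 and 8.17 CPM of Il7r and 0.887, 10.1 and 0.745 CPM of Dntt. Inflamed 2 thus held more of both than any tolerized library. The part of these differences in the results below was not tested beyond the values given beside them. In bulk samples, fewer cells of a type and less RNA per cell cannot be told apart.

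The promoters are shown first because Trim30a, Trim25 and Trim30d, the members higher in inflamed than in tolerized cells, have a short element in common there. The stretches are 100 bases of RefSeq promoter sequence (GRCm38.p6), written 5′ to 3′ along the gene. The capitals mark every match to GAAANNGAA, searched on both strands, which is the core repeat of the interferon-stimulated response element. The stretches run from 70 bases before the first transcribed base to 29 after it, except for Trim26, whose stretch runs from 200 to 101 bases before it.
Trim30a (chr7:104465164-104465263, minus strand): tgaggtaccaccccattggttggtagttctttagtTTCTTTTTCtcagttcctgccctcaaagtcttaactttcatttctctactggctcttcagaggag
Trim30d (chr7:104507820-104507919, minus strand): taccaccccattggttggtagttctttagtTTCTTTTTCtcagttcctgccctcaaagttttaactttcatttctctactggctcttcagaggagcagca
Trim12c (chr7:104353320-104353419, minus strand): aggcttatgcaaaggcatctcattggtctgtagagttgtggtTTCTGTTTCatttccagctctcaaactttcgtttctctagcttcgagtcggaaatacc
Trim12a (chr7:104315466-104315565, minus strand): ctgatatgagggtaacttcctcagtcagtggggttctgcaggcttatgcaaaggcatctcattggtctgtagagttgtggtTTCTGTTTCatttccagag
Trim34a (chr7:104244387-104244486, plus strand): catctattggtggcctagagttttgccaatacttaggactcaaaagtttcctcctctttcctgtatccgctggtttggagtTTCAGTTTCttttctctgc
Trim21 (chr7:102565453-102565552, minus strand): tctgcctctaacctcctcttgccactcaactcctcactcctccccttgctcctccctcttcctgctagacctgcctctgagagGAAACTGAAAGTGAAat
Trim25 (chr11:88999333-88999432, plus strand): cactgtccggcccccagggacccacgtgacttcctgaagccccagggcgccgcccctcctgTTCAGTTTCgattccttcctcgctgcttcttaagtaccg
Trim26 (chr17:36836946-36837045, plus strand): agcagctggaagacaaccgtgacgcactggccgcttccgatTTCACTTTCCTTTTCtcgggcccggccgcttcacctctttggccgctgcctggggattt

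In Trim21 and Trim26 the 2 matches overlap, and in all the others the printed stretch holds 1. The match starts 35 bases before the start site in Trim30a and 40 before it in Trim30d, and the promoter windows of these neighbours share an identical run of 118 bases. The windows of Trim12a and Trim12c share a run of 71 bases. A window reached from 250 bases before a start site to 50 after it. Of the 60 members, 45 had at least 1 window, 59 windows in all, and 12 of these windows (20.3%) held the element, against 2812 of 32851 windows of all genes (8.56%). Counted by gene, 11 of the 34 tested members with a window had a match (32.4%), against 884 of 10049 tested genes (8.80%). The other members with a match were Trim34b, Trim2 and Trim7, and Trim30a had a second start site whose window also held one. Of 9 interferon-stimulated reference genes with a window, 7 held it (77.8%). A match is a run of letters and not a measured binding site.

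**Figure D1:**
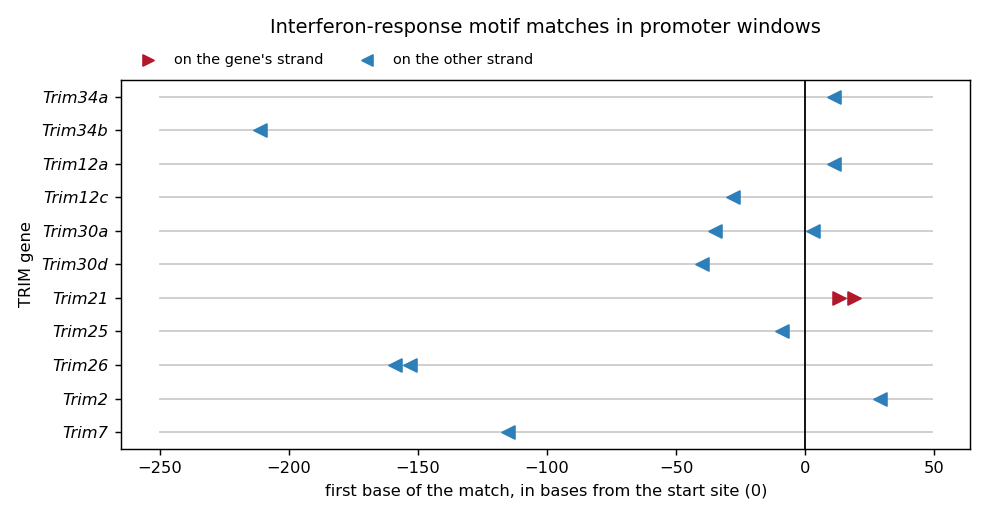
Position of each match to GAAANNGAA in the promoter windows of the 11 tested TRIM genes that have one. The x axis is the distance in bases of the first base of the match from the start site (0), grey lines are the windows of 300 bases, and triangles give the strand; in Trim34a, Trim12a, Trim12c, Trim30a, Trim30d, Trim21, Trim25 and Trim2 a match lies within 40 bases of a start site.

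Summed over the 60 members, TRIM genes took 2650, 2489 and 2529 CPM in the inflamed libraries. The sums were 2070, 1975 and 2023 CPM in tolerized, 1996, 2001 and 1986 CPM in activated, and 1984, 1930 and 1747 CPM in naive libraries. Every inflamed library lay above every other library, and the activated, tolerized and naive sums lay close together. The make-up differed more than the sum. Trim28 alone held 23.5% to 29.2% of the TRIM reads in inflamed, 29.1% to 38.5% in tolerized and 27.5% to 41.0% in activated libraries, against 11.5% to 12.7% in naive ones. Per kilobase of exon, Trim28 had the highest level of the family in all 4 groups, with 201, 213, 210 and 70.2 CPM per kilobase in inflamed, tolerized, activated and naive cells. Second place per kilobase went to Trim30a in inflamed cells (86.5), Trim8 in tolerized (39.5), Trim27 in activated (34.6) and Trim26 in naive cells (48.6 CPM per kilobase).

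**Figure D2:**
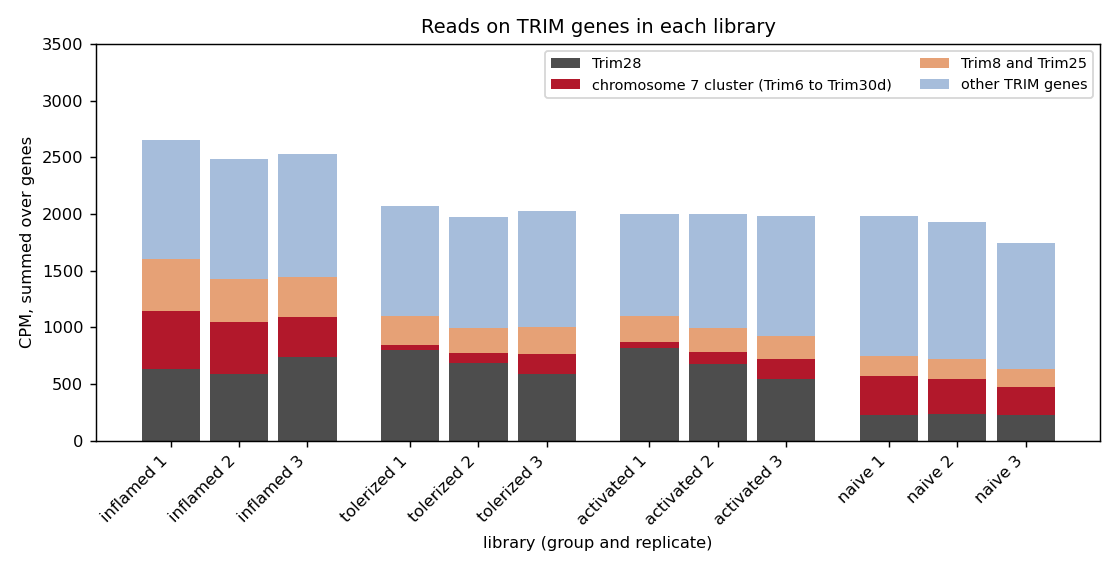
CPM summed over TRIM genes in each of the 12 libraries, stacked as Trim28, the chromosome 7 cluster from Trim6 to Trim30d, Trim8 with Trim25, and the other members. The red cluster band is 351 to 507 CPM in inflamed, 48.0 to 179 CPM in tolerized, 54.1 to 174 CPM in activated and 254 to 339 CPM in naive libraries, while the dark Trim28 band is lowest in naive libraries.

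Against naive cells, more TRIM genes were lower than higher in each antigen-exposed group. Changes are log2 fold changes of CPM + 1 ± SE from 3 libraries per group, and a gene was called at an adjusted p under 0.05 (limma, Benjamini-Hochberg over 12499 genes). In inflamed cells 10 of 44 tested members were higher (22.7%) and 19 lower (43.2%), where 36.9% and 35.5% of all tested genes were. With library size alone as the scaling, 7 were higher and 25 lower there. In tolerized cells 6 were higher (13.6%) and 22 lower (50%), against 37.4% and 35.9% of all genes. The activated counts were likewise 6 and 22, against 35.3% of all genes higher and 35.3% lower. The share lower was above the background and the share higher below it in all 3 comparisons. These shares of all genes are also the background of the counts against naive cells for the lists and clusters below. The median change of the members was -0.36, -0.39 and -0.52 in inflamed, tolerized and activated cells, with -0.01, -0.01 and -0.04 for all genes. The 3 comparisons share the naive libraries, so they are not independent of each other. Trim15 and Trim58, among the lower members in all 3, reached the level needed for testing in naive libraries alone. Their direction was thus set by the filter. Without activated 3 and tolerized 3, the libraries of those groups with the most Il7r, 31, 29 and 31 members were called in inflamed, tolerized and activated cells.

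**Figure D3:**
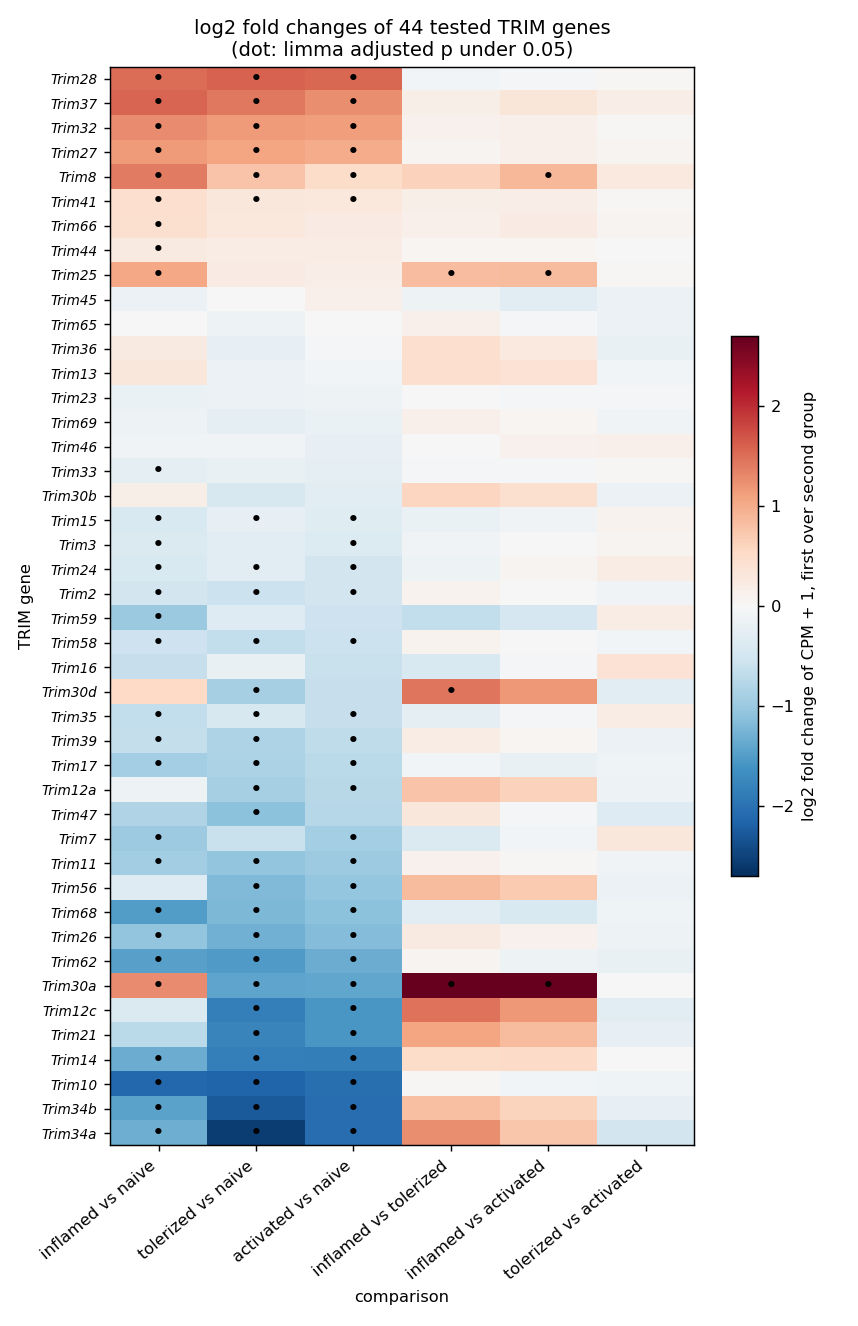
Heat map of the log2 fold change of CPM + 1 for the 44 tested TRIM genes (rows) in the 6 comparisons (columns), first group over second, red for higher and blue for lower; dots mark limma adjusted p under 0.05. Trim28, Trim37, Trim32 and Trim27 are higher in the 3 columns against naive cells, most of the lower rows are blue there, and Trim30a and Trim25 stand out where inflamed cells are set against tolerized or activated ones.

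Of the 4 TIF1 genes, Trim28 was higher in every antigen-exposed group, about 3-fold. It stood at 634, 586 and 738 CPM in inflamed libraries, 798, 688 and 590 CPM in tolerized ones and 818, 679 and 546 CPM in activated ones, against 228, 233 and 222 CPM in naive ones. The lowest antigen-exposed library was more than double the highest naive one. The log2 changes were 1.51, 1.59 and 1.56 (each ± 0.15, adjusted p = 8.34e-06, 5.57e-06 and 7.61e-06, limma). Trim24, a cofactor of nuclear receptors such as the retinoic acid receptor, fell: it had 30.9, 34.0 and 30.1 CPM in inflamed, 33.8, 35.8 and 35.1 CPM in tolerized, 27.6, 26.9 and 36.6 CPM in activated and 44.4, 42.2 and 41.2 CPM in naive libraries. The groups did not overlap with the naive one, and the changes were -0.42 ± 0.12, -0.28 ± 0.12 and -0.49 ± 0.12 (adjusted p = 0.00748, 0.0479 and 0.00337, limma). The tolerized call rests on a narrow margin, since it was lost in 10 of the 12 fits that left out 1 library (adjusted p up to 0.136).

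Trim33, which binds the TGF-beta mediators SMAD2 and SMAD3, had 81.7, 89.2 and 99 CPM in inflamed, 91.5, 95.0 and 91.8 CPM in tolerized, 79.5, 91.5 and 105 CPM in activated and 112, 108 and 102 CPM in naive libraries. It fell by 0.26 ± 0.10 on the log2 scale in inflamed cells (adjusted p = 0.0438, limma), a call lost in 9 of the 12 fits without 1 library, and was not called in the other groups. Trim66, the TIF1 member best known from testis, was scarce: 0.336, 0.662 and 0.646 CPM in inflamed, 0.266, 0.312 and 0.640 CPM in tolerized, 0.288, 0.533 and 0.169 CPM in activated and 0.0870, 0.125 and 0.210 CPM in naive libraries. Its rise in inflamed cells (0.43 ± 0.14, adjusted p = 0.0191, limma) rests on 11, 34 and 26 reads against 4, 12 and 8, and was lost without inflamed 2, inflamed 3, naive 1 or naive 2.

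Most genes on a list of partners of KRAB and Trim28 silencing were higher as well. Of all tested genes, 36.9%, 37.4% and 35.3% were higher in inflamed, tolerized and activated cells, and 35.5%, 35.9% and 35.3% lower. Of 11 tested partners of KRAB and Trim28 silencing, 8 were higher and 1 lower in inflamed cells, 9 higher and 2 lower in tolerized cells and 8 higher and 1 lower in activated cells, with medians of 0.78, 0.90 and 0.78. Setdb1, the histone H3 lysine methyltransferase that Trim28 recruits, rose by 0.89 in inflamed, 0.82 in tolerized and 0.85 in activated cells. Mphosph8 and Pphln1, of the HUSH silencing complex, rose by 1.17 and 1.54 in inflamed cells, 1.22 and 1.56 in tolerized cells and 1.19 and 1.52 in activated cells. Atf7ip, also on the list, went the other way. It averaged 83.4, 91.8 and 98.7 CPM in inflamed, tolerized and activated cells and 210 CPM in naive cells. Of 11 partners of the TIF1 group in SMAD and retinoid signalling, 2 were higher and 8 lower in inflamed cells, and 1 higher and 7 lower in both tolerized and activated cells. Smad7, the inhibitory SMAD, fell by 2.33, 2.69 and 2.02 on the log2 scale in inflamed, tolerized and activated cells. Smad3 rose by 2.59 in inflamed cells and was not called in tolerized (0.30) or activated cells (-0.01). It was also higher in inflamed than in tolerized (2.28, adjusted p = 0.000327, limma) and activated cells (2.59).

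The list of growth, cell cycle and p53 regulators held 13 members, all tested, and went both ways. In inflamed cells 5 were higher and 7 lower, in tolerized cells 5 and 5, and in activated cells 5 and 6. The share higher was near that of all tested genes (36.9%, 37.4% and 35.3%), and 35.5%, 35.9% and 35.3% of all genes were lower. The members higher in all 3 groups were Trim37, Trim32, Trim27, Trim8 and Trim41. Trim37, whose loss disturbs centrosome assembly and causes Mulibrey nanism in humans, had 79.0, 72.5 and 80.4 CPM in inflamed, 71.8, 71.4 and 63.8 CPM in tolerized, 65.5, 60.6 and 57.5 CPM in activated and 25.8, 27.2 and 22.7 CPM in naive libraries. No antigen-exposed library overlapped with a naive one, and the log2 changes of 1.58, 1.42 and 1.25 (each ± 0.09) had the smallest adjusted p of any member in each comparison (2.08e-07, 4.20e-07 and 1.11e-06, limma).

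Trim32, mutated in a human limb-girdle muscular dystrophy, had 42.2, 50.7 and 48.8 CPM in inflamed, 46.0, 45.8 and 38.7 CPM in tolerized, 47.0, 46.3 and 35.6 CPM in activated and 20.8, 20.6 and 15.7 CPM in naive libraries, with changes of 1.27, 1.16 and 1.13 (each ± 0.15). Trim27, which works with a MAGE protein on endosomes, had 171, 144 and 160 CPM in inflamed, 182, 148 and 125 CPM in tolerized, 175, 142 and 119 CPM in activated and 75.0, 70.9 and 66.8 CPM in naive libraries, with changes of 1.14, 1.07 and 1.01 (each ± 0.16). Both genes were at least double on average in every antigen-exposed group, and the 3 such groups overlapped with each other. Trim41, a ligase for protein kinase C, moved less: 57.9, 51.9 and 54.5 CPM in inflamed, 53.1, 46.4 and 48.3 CPM in tolerized, 46.7, 52.1 and 46.6 CPM in activated and 35.9, 39.6 and 43.4 CPM in naive libraries. Its changes were 0.46, 0.31 and 0.29 (each ± 0.10). They were no longer called with library size alone as the scaling, under which the median change of all genes was -0.27, -0.25 and -0.26 in inflamed, tolerized and activated cells. Without naive 1, the call was also lost in tolerized (adjusted p = 0.0595) and activated cells, and without activated 2 in activated cells (adjusted p up to 0.0866 there).

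The members of that list that fell in every comparison with naive cells were Trim11, Trim35, Trim39, Trim62 and Trim68. Trim62, a ligase of the adaptor CARD9, had 2.35, 2.51 and 2.16 CPM in inflamed, 1.33, 2.17 and 3.38 CPM in tolerized, 1.76, 2.53 and 3.99 CPM in activated and 8.18, 7.89 and 8.63 CPM in naive libraries. Trim68, known in human cells as a coactivator of the androgen receptor, had 8.50, 10.1 and 8.0 CPM in inflamed, 8.13, 11.5 and 14.1 CPM in tolerized, 9.29, 11.4 and 16.2 CPM in activated and 28.8, 27.3 and 24.8 CPM in naive libraries. Both had separate naive and antigen-exposed ranges, and in the tolerized and activated groups the third library was the highest and the first the lowest. Trim62 fell by 1.47, 1.54 and 1.34 on the log2 scale (each ± 0.25) and Trim68 by 1.51, 1.22 and 1.11 (each ± 0.22) in inflamed, tolerized and activated cells. Trim11 averaged 42.2 ± 7.12, 38.7 ± 5.94 and 42.1 ± 12.1 CPM in these groups and 82.0 ± 10.6 CPM in naive cells (SD, n = 3 each). Trim59, linked to proliferation in tumours, fell in inflamed cells (-1.01 ± 0.25, adjusted p = 0.00351, limma) and was not called in tolerized (-0.34) or activated cells (-0.55, adjusted p = 0.0661, limma). The direct differences of inflamed from tolerized (-0.67) and activated cells (-0.46) were not called either. Trim59 had 23.1, 32.0 and 23.6 CPM in inflamed and 28.8, 37.8 and 43.0 CPM in activated libraries. Tolerized libraries had 30.2, 37.5 and 64.2 CPM, against 52.7, 52.7 and 54.4 CPM in naive ones. Tolerized 3, the highest of these, was also the library that stood apart in Mki67. Trim13, anchored in the endoplasmic reticulum, was not called in any comparison (9.10 ± 1.71, 6.26 ± 0.557, 6.68 ± 0.955 and 7.07 ± 0.765 CPM in inflamed, tolerized, activated and naive cells).

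Of 11 members on the list of antiviral sensing and interferon signalling, 7 were tested. In tolerized and in activated cells 5 of the 7 were lower than in naive cells and none higher, while in inflamed cells 3 were lower and 1, Trim25, higher. The lower members include Trim15 in each group, whose direction was set by the filter on low counts. The medians were -0.41 in inflamed, -1.20 in tolerized and -1.05 in activated cells. Trim21 had 41.2, 44.5 and 37.4 CPM in inflamed, 11.4, 18.9 and 31.6 CPM in tolerized, 12.2, 25.8 and 34.3 CPM in activated and 73.3, 70.9 and 61.1 CPM in naive libraries. All antigen-exposed libraries lay below the naive ones, and the fall was called in tolerized (-1.79 ± 0.37, adjusted p = 0.00129, limma) and activated cells (-1.58 ± 0.37) but not in inflamed ones (-0.72 ± 0.37, adjusted p = 0.0982, limma). The direct difference of inflamed from tolerized cells, 1.06 ± 0.37, was not called (adjusted p = 0.186, limma).

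Trim56, which acts in the DNA-sensing cGAS and STING pathway, had 72.9, 75.9 and 76.3 CPM in inflamed, 34.3, 38.5 and 52.5 CPM in tolerized, 31.3, 47.2 and 64.3 CPM in activated and 106, 104 and 78.6 CPM in naive libraries. It was lower in tolerized (-1.20 ± 0.24) and activated cells (-1.05 ± 0.24) and not called in inflamed cells (-0.34 ± 0.24). Trim26, a regulator of IRF3 and TBK1 signalling, had 79.4, 77.0 and 67.4 CPM in inflamed, 53, 63.1 and 72.8 CPM in tolerized, 50.6, 69.6 and 93.3 CPM in activated and 154, 157 and 156 CPM in naive libraries. Its fall was called in all 3 groups (-1.06, -1.30 and -1.16, each ± 0.19), and no antigen-exposed library came near the naive level. In tolerized and activated cells Trim21, Trim56 and Trim26 were each lowest in library 1 and highest in library 3, the order in which Il7r also stood.

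Trim14, an adaptor at the mitochondrial protein MAVS, had 9.08, 9.35 and 5.93 CPM in inflamed, 3.23, 4.04 and 11 CPM in tolerized, 3.20, 6.23 and 7.20 CPM in activated and 26.8, 22.6 and 17.1 CPM in naive libraries, with falls of 1.35, 1.85 and 1.86 on the log2 scale (each ± 0.39). Up to 1356 bases of a Trim14 exon in the annotation (GENCODE M21) lie opposite exons of Nans, the sialic acid synthase gene, and the sources used here do not say that counting used strand, so reads of the 2 genes may not be told apart. Nans itself stood at 65.1 to 70.5 CPM in inflamed, 77.5 to 86.5 CPM in tolerized and 60.7 to 75.8 CPM in activated libraries, against 32.2 to 37.0 CPM in naive ones, the opposite order. Trim65, which ubiquitinates the RNA sensor MDA5, was not called in any comparison, with 22.9, 25.1 and 27.4 CPM in inflamed, 25, 22.8 and 21.0 CPM in tolerized, 21.4, 30.1 and 25.6 CPM in activated and 28.7, 26.6 and 20.9 CPM in naive libraries. Trim15 was at 0 to 0.223 CPM in the 9 antigen-exposed libraries and 0.326 to 0.385 CPM in naive ones. It was called lower in all 3 groups on at most 10 reads a library there, and the tolerized call was lost in 6 of the 12 fits without 1 library (adjusted p up to 0.160). Trim15 reached 0.258 CPM, the level needed for testing, in naive libraries alone. The filter thus set the direction of these calls, which are no further support. The other listed members, Trim6, Trim31, Trim38 and Trim40, had 13, 1, 2 and 2 reads over all 12 libraries and were not tested.

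The 8 members from Trim6 to Trim30d lie side by side on chromosome 7 (104218795 to 104507853, GRCm38), and 7 of them were tested. Their summed level was 507, 463 and 351 CPM in inflamed, 48.0, 82.1 and 179 CPM in tolerized, 54.1, 107 and 174 CPM in activated and 339, 314 and 254 CPM in naive libraries. In this sum, mostly Trim30a and Trim12c, the inflamed and naive libraries lay above all tolerized and activated ones. Single members could differ: activated 3 held 14.6 CPM of Trim34a and 4.50 CPM of Trim34b, each above every inflamed library. Of the 7, 6 were lower than naive in tolerized cells and 5 in activated cells, with none higher, while in inflamed cells 1 was higher and 2 were lower. Several are near copies of each other, so the split of reads between them depends on how the authors counted reads that match both. On the list of this family were also Trim43a, Trim43b and Trim43c, which lie on chromosome 9 and were not tested.

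Trim30a, a feedback inhibitor of Toll-like receptor signalling in mice that is itself interferon-inducible, had the highest level per kilobase of exon in the cluster in each group, with Trim12c close to it in activated and naive cells. It stood at 392, 340 and 246 CPM in inflamed, 28.2, 38.8 and 103 CPM in tolerized, 29.8, 49.1 and 79.0 CPM in activated and 140, 140 and 115 CPM in naive libraries. The 4 groups fell into 3 levels with no overlap between inflamed libraries, naive libraries and the rest. Against naive cells it rose by 1.28 ± 0.44 in inflamed cells (adjusted p = 0.0220, limma), and fell by 1.41 ± 0.44 in tolerized (adjusted p = 0.0137, limma) and 1.40 ± 0.44 in activated cells (adjusted p = 0.0148, limma). These 3 calls were each lost without single libraries: inflamed 1, inflamed 2 or naive 3 for the first (adjusted p up to 0.0706), tolerized 1 for the second (0.0632) and activated 1 for the third (0.0699). The changes without a library stayed between 1.15 and 1.49, -1.95 and -1.02, and -1.75 and -1.03. The first call was also lost with library size alone as the scaling.

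Trim12c, which promotes interferon and NF-kB signalling in mice, had 88.1, 101 and 89.8 CPM in inflamed, 16.4, 36.0 and 60.5 CPM in tolerized, 19.0, 46.7 and 73.4 CPM in activated and 147, 127 and 97.0 CPM in naive libraries. It was lower in tolerized (-1.85 ± 0.49) and activated cells (-1.57 ± 0.49) and not called in inflamed cells (-0.39 ± 0.49). Without activated 1 the activated change was -1.01 (adjusted p = 0.0597, limma). Trim34a had 13.9, 13.5 and 9.78 CPM in inflamed, 1.90, 4.89 and 9.17 CPM in tolerized, 2.66, 7.46 and 14.6 CPM in activated and 36.0, 32.0 and 28.2 CPM in naive libraries. Its near copy Trim34b was lower in level, with 3.18, 4.38 and 2.53 CPM in inflamed, 0.266, 1.41 and 3.81 CPM in tolerized, 0.360, 2.08 and 4.50 CPM in activated and 12.3, 10.4 and 9.68 CPM in naive libraries. Among members averaging at least 5 CPM in the higher group, these 2 genes had the largest falls in tolerized (-2.56 and -2.26) and activated cells (-2.07 and -2.05). In both groups library 1 of each gene was 4 times or more below library 3. In inflamed cells they fell by 1.31 ± 0.51 and 1.45 ± 0.52 on the log2 scale, calls lost in 8 and in 4 of the 12 fits without 1 library (adjusted p up to 0.114 and 0.0826).

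The smaller members of the cluster had few reads. Trim12a had 3.79, 1.97 and 1.64 CPM in inflamed, 0.874, 0.759 and 1.31 CPM in tolerized, 0.756, 1.15 and 1.71 CPM in activated and 2.78, 2.61 and 2.57 CPM in naive libraries, and was called lower in tolerized (-0.89) and activated cells (-0.75), the activated call being lost without activated 1 (adjusted p = 0.0599). Trim30d had 4.59, 2.04 and 1.24 CPM in inflamed, 0.190, 0.0893 and 0.466 CPM in tolerized, 1.04, 0.213 and 0.375 CPM in activated and 0.761, 1.82 and 1.47 CPM in naive libraries. Trim30b had 1.28, 0.370 and 0.397 CPM in inflamed, 0.0760, 0.112 and 0.0873 CPM in tolerized, 0.324, 0.133 and 0.187 CPM in activated and 0.392, 0.375 and 0.656 CPM in naive libraries, and was not called in any comparison. All 3 had lower means in tolerized and activated cells than in inflamed and naive ones, as their larger relatives did.

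**Figure D4:**
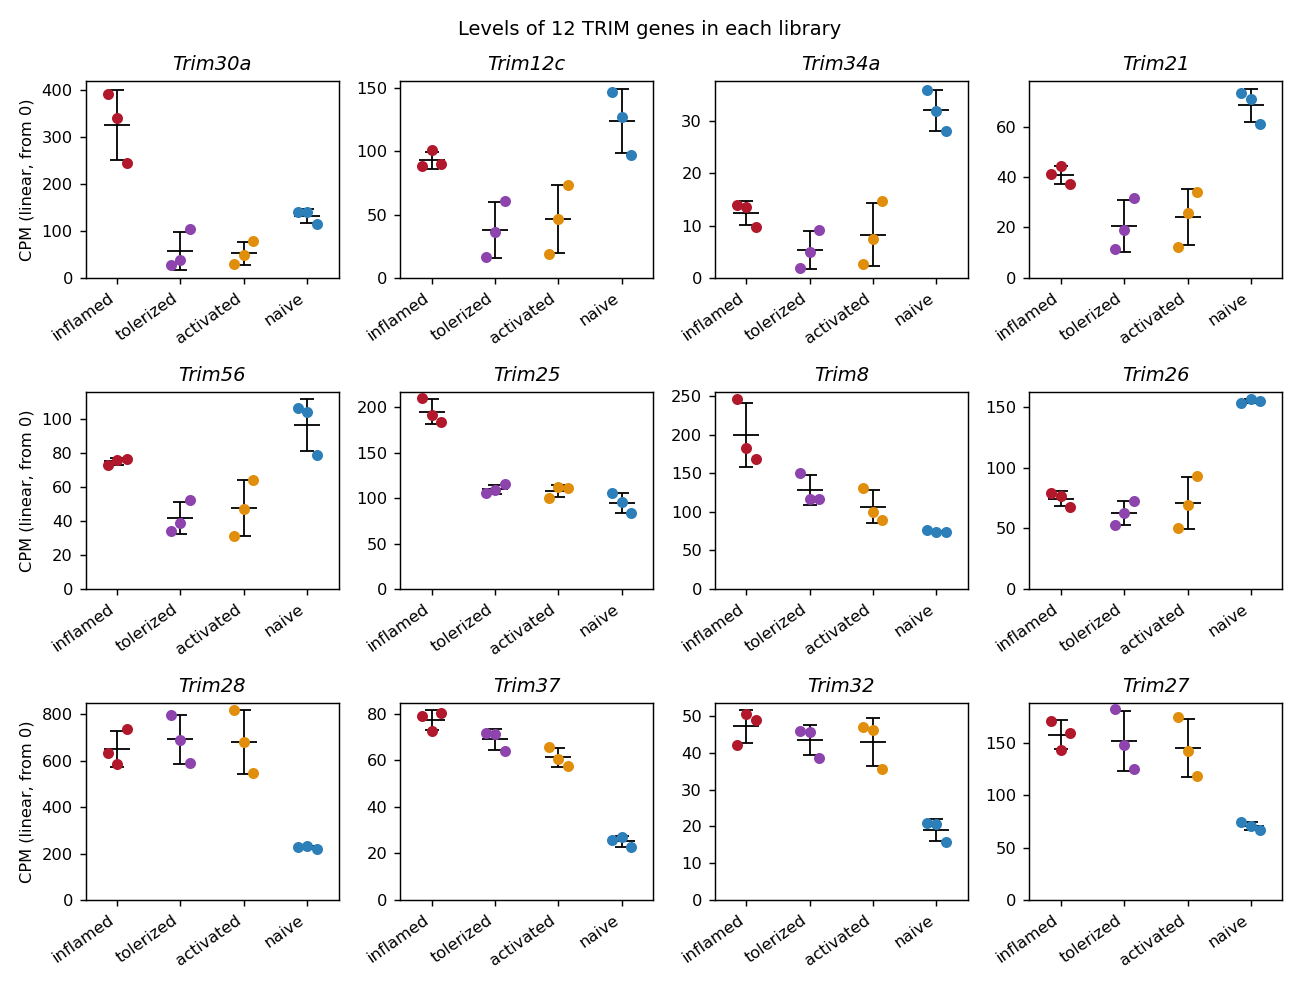
CPM in each library for 12 TRIM genes, 1 panel a gene on a linear axis from 0, with inflamed, tolerized, activated and naive libraries from left to right (replicates 1, 2 and 3 in that order); bars are the mean and SD of 3 libraries. Trim30a, Trim25 and Trim8 are highest in inflamed cells (246 to 392, 184 to 210 and 169 to 246 CPM), Trim12c, Trim34a, Trim21, Trim56 and Trim26 are highest in naive cells, and Trim28, Trim37, Trim32 and Trim27 are lowest there.

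Setting inflamed against tolerized cells asks what LPS added to antigen under anti-CD154. Of the 44 tested members, 3 were higher and none lower (6.82% and 0%), where 1.66% of all genes were higher and 1.12% lower; 13 had an unadjusted p under 0.05. Trim30a was 6.49-fold higher (log2 change 2.70 ± 0.44, adjusted p = 0.00784, limma), and the lowest inflamed library held more than double the highest tolerized one. Trim25 had 210, 192 and 184 CPM in inflamed libraries and 105, 108 and 115 CPM in tolerized ones, with 105, 95.8 and 83.5 CPM in naive ones. It was 1.77-fold higher than in tolerized cells (0.82 ± 0.09, adjusted p = 0.00109, limma), with separate and narrow ranges. Trim30d was called at 1.44 ± 0.32 (adjusted p = 0.0411, limma), which rests on 150, 105 and 50 reads against 5, 4 and 16 and was lost in 10 of the 12 fits without 1 library (adjusted p up to 0.165). With only these 2 groups in the fit, Trim25 alone remained called and Trim30a had an adjusted p of 0.0627 (limma).

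Against activated cells, which had neither anti-CD154 nor LPS, the inflamed cells again had 3 members higher and none lower, with 1.54% of all genes higher and 0.384% lower; 12 members had an unadjusted p under 0.05. Trim30a was 6.44-fold higher (2.69 ± 0.44, adjusted p = 0.0102, limma). Trim25 stood at 99.8, 112 and 111 CPM in activated libraries and was 1.81-fold higher in inflamed ones (0.86 ± 0.09, adjusted p = 0.00124, limma). Trim8, which activates NF-kB through the kinase TAK1 and counteracts the cytokine inhibitor SOCS1, had 246, 183 and 169 CPM in inflamed libraries, 151, 117 and 117 CPM in tolerized, 131, 99.2 and 89.6 CPM in activated and 75.8, 73.4 and 73.3 CPM in naive libraries. The inflamed range lay above all others, the naive range below them, and the tolerized and activated ranges overlapped. Trim8 was 1.86-fold higher than in activated cells (0.89 ± 0.17, adjusted p = 0.0214, limma), while its difference from tolerized cells of 0.62 ± 0.17 was not called (adjusted p = 0.0882, limma). The change against naive cells was 1.39, 0.77 and 0.50 (each ± 0.17) in inflamed, tolerized and activated cells, the last lost without activated 1, naive 2 or naive 3 (adjusted p up to 0.0642).

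Single libraries decided part of these calls. Against activated cells, 1 member was called without activated 2, inflamed 1 or inflamed 2. Trim30a then had an adjusted p of up to 0.0596 and Trim8, which was also lost without activated 3, of up to 0.106 (limma). With same-numbered libraries treated as pairs and only these 2 groups in the fit, Trim8 stayed called (adjusted p = 0.0325, limma), while Trim30a (0.0876) and Trim25 (0.0635) did not; with pairs and all libraries in the fit, all 3 were called. Without activated 3 and tolerized 3, 5 members were called against tolerized cells and 3 against activated cells. Neutrophil and macrophage markers varied among the inflamed libraries: the 5 neutrophil markers found summed to 191, 86.3 and 9.88 CPM in inflamed libraries 1, 2 and 3, against 1.71 to 8.91 CPM in tolerized, 1.01 to 12.3 CPM in activated and 12.0 to 17.5 CPM in naive ones. Trim30a, Trim25, Trim8 and Trim30d stood in the same order over these libraries, highest in inflamed 1 and lowest in inflamed 3, and the part of these cells in their levels was not tested. Inflamed 3 had a neutrophil sum above every tolerized library and, among the activated ones, below activated 1 alone. Its macrophage sum of 10.3 CPM was the lowest of all libraries. It had 246 CPM of Trim30a, 184 CPM of Trim25 and 169 CPM of Trim8, each above every tolerized and activated library. Which cells these reads came from was not tested.

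Of all tested genes, 1.66% were higher and 1.12% lower in inflamed than in tolerized cells, and 1.54% and 0.384% than in activated cells. The interferon-stimulated reference genes, a list of 12 that holds no TRIM gene, were called higher in 9 cases against tolerized and 10 against activated cells, with none lower. Their sum was 1305, 1019 and 782 CPM in inflamed, 202, 236 and 401 CPM in tolerized, 268, 319 and 431 CPM in activated and 1039, 1056 and 821 CPM in naive libraries. This order, with inflamed and naive libraries above all tolerized and activated ones, was that of the summed chromosome 7 cluster, which is mostly Trim30a and Trim12c. Ifit1, an interferon-induced RNA-binding protein, was 4.49 higher on the log2 scale in inflamed than in tolerized cells (adjusted p = 0.00116, limma), Oasl2 3.66 higher and Bst2, or tetherin, 2.0 higher. Against naive cells the list was lower in 9 cases in tolerized and 10 in activated cells. In inflamed cells 8 were higher than in naive cells and 1 lower.

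Genes that act with the antiviral TRIMs were also counted. The background is again 1.66% of all tested genes higher and 1.12% lower than in tolerized cells, and 1.54% and 0.384% than in activated cells. Of 15 tested partners in RIG-I and STING sensing, 5 were higher in inflamed than in tolerized cells and 5 higher than in activated cells, with none lower. Among them Isg15, the ubiquitin-like modifier, was 3.57 higher on the log2 scale than in tolerized cells, Ifih1, which encodes MDA5, 2.54 higher, Usp18 4.13 higher and Irf7 3.75 higher. Against naive cells 5 were higher and 3 lower in inflamed cells, 2 higher and 10 lower in tolerized cells and 2 higher and 9 lower in activated cells. Rnf135, a RING ligase of RIG-I, was lower in all 3 groups (-1.05, -0.78 and -0.85). Of 6 tested TRIM relatives that carry other names, Pml, the organiser of nuclear bodies, stood at 164 ± 34.3 CPM in inflamed, 61.7 ± 31.9 CPM in tolerized, 47.9 ± 7.36 CPM in activated and 90.8 ± 3.85 CPM in naive cells (SD, n = 3 each). It was 1.49 higher in inflamed than in tolerized cells (adjusted p = 0.0184, limma) and 1.75 higher than in activated cells (adjusted p = 0.0095, limma). Bspry, a B-box protein, rose against naive cells in all 3 groups, by 1.85, 2.48 and 2.30 on the log2 scale.

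Members with the promoter element shown above were then set beside those without, as a description: the 3 members called in inflamed against tolerized cells all carry it, which is why it is shown, so their calls say nothing further about it. In inflamed against naive cells 2 of the 11 tested members with a match were higher and 5 lower (median -0.49), and of the 23 without a match 7 were higher and 8 lower (median -0.17). In tolerized against naive cells 9 of the 11 were lower and none higher, with 9 lower and 5 higher of the 23. In activated against naive cells 9 of the 11 were lower and none higher, with 8 lower and 5 higher of the 23. The lower ones of the 23 include Trim15 and Trim58 in each comparison, which were tested through their naive libraries alone. Changes spread widely among members with the element: from -0.39 in Trim7 to 2.70 in Trim30a in inflamed against tolerized cells. Trim8, which was higher in inflamed than in activated cells, had no window in the table, and neither had Trim14.

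Setting tolerized against activated cells asks what blocking CD154 did to the response to antigen. None of the 44 members was called, and 0% of all tested genes were called higher and 0% lower (limma). No member had an unadjusted p under 0.05, against 531 of all tested genes, and limma-voom called none either. The 3 members with the smallest unadjusted p were Trim37, with a difference of 0.17 (95% interval -0.04 to 0.38), Trim24, with 0.21 (-0.05 to 0.46), and Trim8, with 0.27 (-0.10 to 0.64). Each had an adjusted p of 1 (limma). The median half-width of the 95% interval over members was 0.38 on the log2 scale (0.38 is a median, and it was narrower for some members and wider for others). Trim30a differed by -0.01 with an SE of 0.44, a wide interval set by the spread that the fit shares over all 4 groups.

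The 2 erythroid members were lower in all 3 antigen-exposed groups, and so were markers of red cells. Trim10, needed for terminal erythroid differentiation, had 0.306, 0.448 and 0.0497 CPM in inflamed, 0.114, 0.357 and 0.204 CPM in tolerized, 0.360, 0.453 and 0.187 CPM in activated and 3.18, 3.43 and 7.79 CPM in naive libraries. Trim58, which helps erythroblasts to expel the nucleus, had 3, 6 and 2 reads in inflamed, 0, 2 and 0 in tolerized, 3, 2 and 3 in activated and 15, 61 and 34 in naive libraries. The naive libraries were separate from the rest for both. Trim58 reached 0.258 CPM, the level needed for testing, in naive libraries alone. The filter thus set the direction of its change, and its calls are no further support. Trim10 changed by -2.12, -2.16 and -2.04 (each ± 0.25) and Trim58 by -0.56, -0.66 and -0.58 (each ± 0.12) in inflamed, tolerized and activated cells. All 8 erythroid markers found were likewise lower in each comparison, with sums of 10.9 to 68.2 CPM in inflamed, 29.3 to 84.7 CPM in tolerized, 22.2 to 162 CPM in activated and 541 to 1296 CPM in naive libraries. Naive 3 had both the highest erythroid sum and the most Trim10.

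A second cluster, the 6 members from Trim39 to Trim31 on chromosome 17 (36258872 to 36910217, GRCm38), lies in the region of the major histocompatibility complex. Its 4 tested members, Trim39, Trim26, Trim15 and Trim10, were lower than naive in all 3 groups, with medians of -0.85, -1.07 and -0.92 in inflamed, tolerized and activated cells. Of these, Trim15 was tested through its naive libraries alone, and Trim10 is an erythroid member that was lower along with the red cell markers. The sums, mostly Trim26 and Trim39, were 124, 126 and 123 CPM in inflamed, 90.2, 111 and 117 CPM in tolerized, 82.3, 125 and 156 CPM in activated and 234, 240 and 239 CPM in naive libraries. Unlike the chromosome 7 cluster, it had no member called between inflamed and tolerized cells. Trim39, a regulator of the anaphase-promoting complex, averaged 49.2 ± 6.04, 42.8 ± 5.19 and 49.5 ± 16.2 CPM in inflamed, tolerized and activated cells and 76.8 ± 1.66 CPM in naive cells (SD, n = 3 each).

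Among the other members, Trim44, which carries a zinc finger of ubiquitin hydrolases, was abundant and changed little: 168 ± 14.9, 162 ± 5.56 and 162 ± 9.44 CPM in inflamed, tolerized and activated cells and 141 ± 10.5 CPM in naive cells (SD, n = 3 each). Its call in inflamed cells (0.24 ± 0.09, adjusted p = 0.0244, limma) was lost without inflamed 3 or naive 3, and the value turned to -0.09 with library size alone as the scaling. Of the 8 tested members on no role list, 1 was higher and 2 lower in inflamed cells, and 2 were lower in tolerized and in activated cells. Trim23, which combines a RING with a GTPase domain, was not called in any comparison (21.5 ± 2.08, 21.5 ± 1.52, 22.1 ± 3.49 and 24.3 ± 1.26 CPM in inflamed, tolerized, activated and naive cells). Trim17, low in all groups, overlaps the histone gene Hist3h2a by up to 708 exon bases on the same strand, so its calls are uncertain. The neuronal and cytoskeletal list had 3 tested members, of which Trim2, a ligase of neurofilament light chain, was lower in each comparison with naive cells (-0.49, -0.58 and -0.49, each ± 0.16) at levels under 2 CPM. The inflamed call was lost without inflamed 1 or naive 1 (adjusted p up to 0.078) and the activated call without activated 1 or naive 1 (up to 0.0843). The 16 members that were not tested had 1 to 119 reads over all 12 libraries, and 10 of the 60 had under 10 reads.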

How the data were processed

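Members and gene lists were chosen with earlier results of these data known. Per the labels' protocols, messenger RNA was sequenced on an Illumina HiSeq; their extraction text also speaks of embryonic fibroblasts, which does not match sorted T cells. The submitters' processing notes name TopHat2, bedtools, DESeq, mm10 and GRCm38, without roles or versions. The deposited values are whole-number read counts per gene that were not normalized by the authors. Commas between digits made them read as text; the unit stands as other in the records, and a log-scale test was used. Of the deposited values from 1 to 20, 55.6% to 64.4% were even, so pairs may have been counted as 2 reads.

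Commas were removed and CPM computed with library sizes scaled by trimmed means of M values (factors 0.897 to 1.22). Genes with at least 0.258 CPM (10 reads at the median library) in 3 libraries and 15 reads in all were tested, 12499 in number. In R 4.3.3, limma 3.58.1 was run in its trend mode on log2(CPM + 1), which understates the change of low genes, with 4 group means over all 12 libraries and Benjamini-Hochberg adjustment. It was tested on simulated reads first. Markers and other genes came from fixed lists; values in every library are given for the 6 largest rises and falls against naive cells among called members of at least 5 CPM, for members called among the antigen-exposed groups, and for the TIF1, antiviral, chromosome 7 and erythroid members. Il7r, Dntt and Mki67 were chosen after their values were seen, as were Nans and Hist3h2a, which overlap members, and the members named as not called or as averages. Coordinates and promoters are RefSeq GRCm38.p6. Exons of 17 members overlap other genes in GENCODE M21. Same-numbered libraries deviated together in all 3 pairs between tolerized and activated cells (r 0.602, 0.190 and 0.576). They also did between inflamed and activated cells (r 0.636, 0.225 and 0.146), and not in the other 4 comparisons. Some libraries of unlike number deviated together as much or more: inflamed 2 with activated 3 (r 0.562), inflamed 3 with activated 2 (r 0.250) and inflamed 2 with tolerized 3 (r 0.541). The values thus do not set same-numbered inflamed and activated libraries apart, and any pairing comes from the data alone. Alternatives were 3 other scalings, limma-voom, filters, pseudocounts of 0.1 and 5, the compared groups alone, a replicate block, a 2-fold threshold and each library left out in turn. Counting intervals were not used.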

Additional observations from a re-analysis of the deposited data

How the results depend on the processing

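Of 25 alternatives per comparison, the count of called members stayed within 1.5 times the main count in 24 for inflamed, tolerized and activated against naive cells, 25 for tolerized against activated, 21 for inflamed against tolerized and 20 for inflamed against activated cells. With a change of at least 2-fold also required, 15, 17 and 15 members were called in inflamed, tolerized and activated against naive cells and 1 in inflamed against activated cells. With only the compared groups in the fit, 1 member was called in inflamed against tolerized cells. With the replicate block in that fit, 0 were called there and 1 in inflamed against activated cells; a block with all libraries changed no count by over 1.5 times. Without activated 3 and tolerized 3, an alternative added after the values were seen, 5 were called in inflamed against tolerized cells. Leaving out each library in turn gave 22 to 31 called members in inflamed, 22 to 29 in tolerized and 23 to 30 in activated against naive cells, 0 to 0 in tolerized against activated, 2 to 5 in inflamed against tolerized (5 without activated 1) and 1 to 4 in inflamed against activated cells. Among member values called in the main fit or in the alternative, 1 turned its direction: Trim44 in inflamed against naive cells was -0.085 with library size alone. Turns of values called in neither fit were not counted. The cause of these changes was not tested, beyond the smaller number of libraries in some fits. With library size alone, 21.9%, 14.7% and 12.5% of the called members were higher in inflamed, tolerized and activated against naive cells, against 34.5%, 21.4% and 21.4% in the main results. In libraries of 29.3 M reads or more, the 16 members with few reads could not be compared.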

Other observations

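Trim43c, a preimplantation-embryo gene of the mouse, had 56 reads in tolerized 1 and 56 in inflamed 1, with 5 in inflamed 2, 2 in naive 3 and 0 in the other libraries. It missed the filter on low counts and enters no comparison. Its annotated exons overlap a transcript on the opposite strand by up to 415 bases.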
